A study of Mus musculus with 9 samples.

Results

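Hoxa13 binding sites in the mouse limb bud were compared between embryonic stages E12.5 and E11.5 (days after conception), using the peak lists of chromatin immunoprecipitation and sequencing (ChIP-seq). A peak is an interval of the genome called as enriched in the DNA recovered with the Hoxa13 antibody. The E12.5 list held 44699 peaks and the E11.5 list 143460, together 188159 of the 243649 peaks in the 5 lists of the series. A peak was called kept when it shared at least 1 bp with a peak of the other stage. An E12.5 peak with no E11.5 partner was called new, and an E11.5 peak with no E12.5 partner was called lost. These words describe the lists only, since a site below the calling threshold at either stage is absent from its list.

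Both libraries came from wild-type embryos of the outbred ICR strain and were precipitated with a home-made Hoxa13 antibody. For E12.5 limb buds, precipitation and library followed an earlier published procedure, while the E11.5 library was made with a commercial kit from the whole limb buds of a litter. Each stage had 1 library, so no difference between the stages has a replicate check, and stage and protocol cannot be told apart. The labels do not separate forelimb from hindlimb, and the tissue could not be checked against marker genes in lists of positions. Lists of Hoxa13 in the E11.0 autopod (the future hand and foot) and of Hoxa11 in E11.5 limb buds, in replicates 1 and 2, served as further readouts. The 4 input libraries were not analysed here.

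Hoxa13 is a homeodomain transcription factor of the distal limb. Together with Hoxd13 it is required to form the digits, and it acts on limb genes through enhancers that often lie far from their targets, among them enhancers of the HoxA and HoxD clusters. As the limb bud grows, the domain with Hoxa13 comes to make up the autopod, while Hoxa11 marks the more proximal zeugopod, the future forearm and lower leg.

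Most E12.5 sites were already in the E11.5 list, whereas most E11.5 sites had no E12.5 partner. Of the E12.5 peaks, 31615 were kept (70.7%) and 13084 were new (29.3%). Of the E11.5 peaks, 31086 were kept (21.7%) and 112374 were lost (78.3%). The E11.5 list was 3.21 times as long as the E12.5 list, so these shares differ in part by construction, and a share kept is read below only within a stage. Under a rule that asks for 50% of both peaks, the kept shares were 29.6% at E12.5 and 9.23% at E11.5. With the E11.5 list limited to its widest 44699 peaks, they were 43.2% at E12.5 and 42.0% at E11.5.

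Kept sites were nearly always single pairs of peaks at the same place. The lists formed 31639 overlapping pairs, and in 96.5% of them each peak had only the other as its partner. In 85.2% of pairs the E12.5 peak lay wholly inside the E11.5 peak, and the reverse held in 0.727%. The midpoints of paired peaks were a median of 30 bp apart (quartiles 14 and 62 bp). They lay within 50 bp of each other in 68.3% of pairs and over 200 bp apart in 3.55%. The median signed difference of midpoints was 0 bp, so E12.5 peaks were shifted to neither side. In bases, 72.4% of the 7.99 Mb covered at E12.5 lay in E11.5 peaks, and 12.8% of the 45.1 Mb covered at E11.5 lay in E12.5 peaks.

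Only 23 E12.5 peaks spanned more than 1 E11.5 peak, while 517 E11.5 peaks held several E12.5 peaks. The E11.5 interval with most partners lay on chromosome 2, 3881671 to 3885749 in the mouse build mm9, and held 7 E12.5 peaks. It was followed by an interval of 3920 bp on 4_random with 5. The E11.5 peak on chromosome 1, 7379362 to 7384341, held 4 E12.5 peaks and was the widest of the list at 4980 bp.

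Peak width differed between the stages and between the classes within each stage. At E12.5 the kept peaks had a median width of 164 bp (quartiles 131 and 217) and the new peaks 137 bp (117 and 169). At E11.5 the kept peaks had a median of 354 bp (294 and 438) and the lost peaks 272 bp (232 and 325). The shortest width in each list, 110 bp at E12.5 and 203 bp at E11.5, was also a common one. It was the width of 6.59% of kept and 13.6% of new E12.5 peaks, and of 0.923% of kept and 3.93% of lost E11.5 peaks. In pairs with 1 partner each, the E12.5 peak had a median of 0.479 times the width of its E11.5 partner and was the wider of the 2 in 2.44% of pairs. Across these 30528 pairs the widths had a Spearman correlation of 0.36, a description over pairs that share their libraries.

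**Figure D1:**
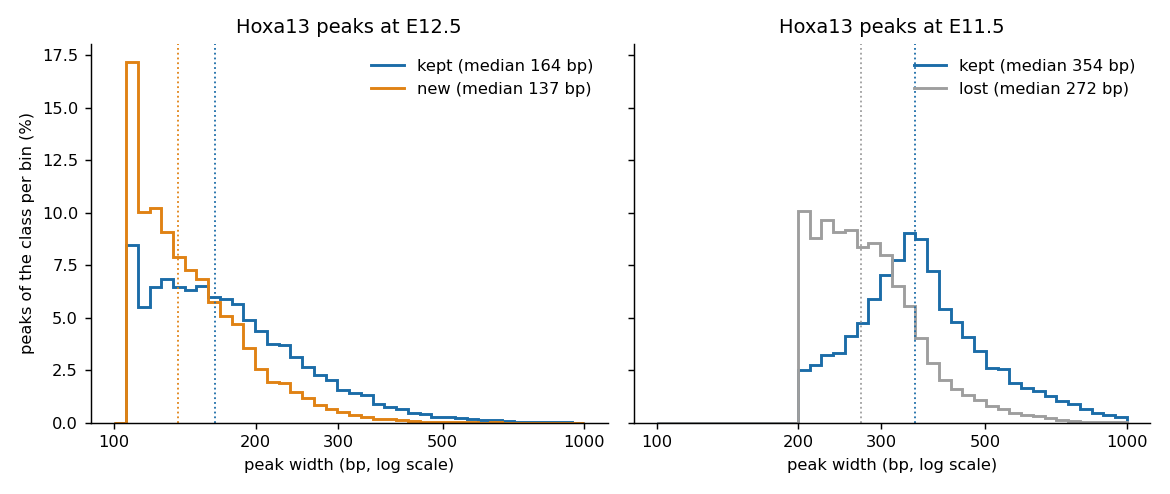
Distribution of peak widths in base pairs (log axis) as the percentage of peaks of each class per bin, at E12.5 on the left and E11.5 on the right; dotted lines mark medians. Kept peaks were shifted to greater widths than new peaks at E12.5 (medians 164 and 137 bp) and than lost peaks at E11.5 (354 and 272 bp).

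The share of peaks kept followed their width. Both lists were ordered by width and cut into 10 classes of equal size. In the narrowest class at E12.5 (110 to 112 bp), 54.2% were kept (95% interval 52.7 to 55.6), and in the widest (270 to 4329 bp) 90.5% were kept (89.6 to 91.4). The share was higher in each successive class. At E11.5 it was 6.59% in the narrowest class (203 to 214 bp; interval 6.19 to 7.01) and 52.99% in the widest (441 to 4980 bp; 52.2 to 53.8), and again higher in each successive class. Width itself enters the overlap rule. With every peak replaced by 200 bp around its midpoint, the kept share was 68.2% at E12.5 and 21.2% at E11.5. These are shares of the whole lists. The shares by width class were not recomputed in this way, so how far the trend depends on the rule was not tested.

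New and lost peaks were not, for the most part, near misses. Of the new E12.5 peaks, 3.32% had an E11.5 peak within 200 bp and 14.1% within 1000 bp. Their median distance to the nearest E11.5 peak was 5312 bp (quartiles 2017.5 and 12027 bp), and 69.7% had one within 10 kb. Lost E11.5 peaks lay a median of 17450 bp from the nearest E12.5 peak (quartiles 6693 and 39078 bp). These distances depend on list length, since the E11.5 list that new peaks were measured against is the denser one. Within their own list, 39.8% of kept and 42.2% of new E12.5 peaks had a neighbour within 10 kb. For E11.5 the shares were 75.7% of kept and 72.8% of lost peaks.

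Kept sites carried the other limb HOX signals more often than new or lost sites did. Of all E12.5 peaks, 35.6% met a Hoxa13 peak of the E11.0 autopod. The share was 43.5% of kept peaks (43.0 to 44.1) and 16.4% of new peaks (15.8 to 17.1). At E11.5 the share over all peaks was 20.5%, with 44.3% of kept (43.7 to 44.8) and 13.98% of lost peaks (13.8 to 14.2). Conversely, 86.5% of the E12.5 peaks that met E11.0 were kept, against 62.0% of those that did not. The 2149 new E12.5 peaks with an E11.0 partner were thus called at E11.0 and E12.5 but not at the stage between them. Of these, 337 lay in the dense windows described below and 120 on unplaced sequence or the mitochondrial genome. Elsewhere 1692 of 11755 new peaks met E11.0 (14.4%). The E11.0 list is of autopod and the other 2 are of limb bud, so tissue differs as well as stage.

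The contrast by E11.0 was found at every width. In the narrowest class of E12.5 peaks, 25.3% of kept (23.6 to 27.1) and 11.4% of new peaks (10.1 to 12.9) met E11.0. In the widest class the shares were 67.8% (66.3 to 69.3) and 36.1% (31.5 to 40.9). At E11.5 they were 24.3% of kept (21.6 to 27.2) and 7.27% of lost peaks (6.83 to 7.72) in the narrowest class, and 63.1% (62.0 to 64.2) and 32.9% (31.8 to 34.1) in the widest.

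**Figure D2:**
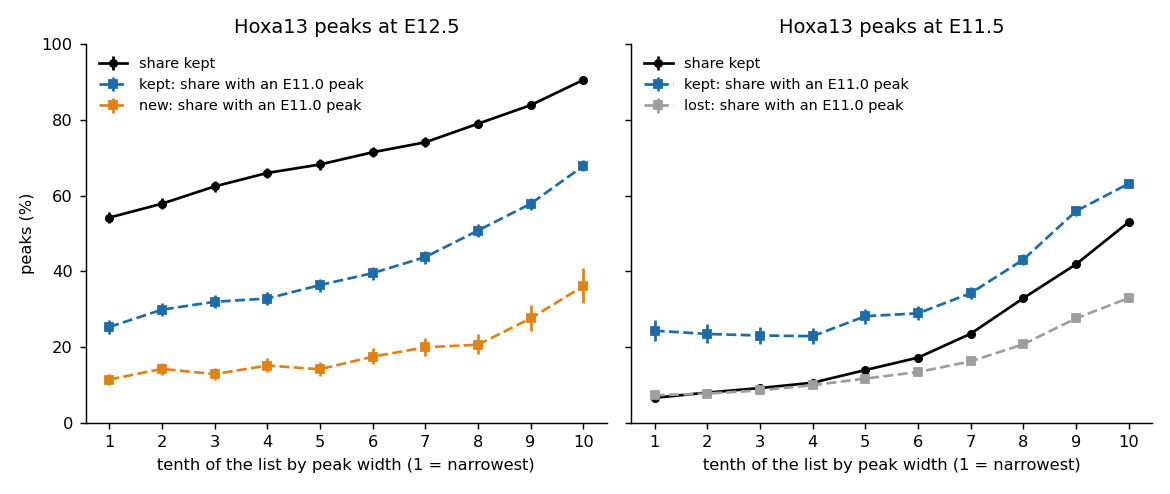
Share of Hoxa13 peaks kept (black) and share of kept and of new or lost peaks that met an E11.0 autopod peak (dashed), in 10 width classes of equal size from the narrowest to the widest, with exact 95% intervals; E12.5 left, E11.5 right. The kept share ran from 54.2% to 90.5% at E12.5 and from 6.59% to 52.99% at E11.5, and in every class kept peaks met E11.0 more often than new or lost peaks of like width.

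Hoxa11 binding showed the same order. A Hoxa11 peak of either replicate was met by 4.09% of all E12.5 peaks, by 5.10% of kept (4.86 to 5.35) and by 1.65% of new peaks (1.44 to 1.88). Over all E11.5 peaks the share was 1.67%, with 5.05% of kept (4.81 to 5.30) and 0.739% of lost peaks (0.690 to 0.791). Of the 722 E12.5 peaks that met Hoxa11 in both replicates, 682 were kept (94.5%, 92.5 to 96.01). Of the 842 such E11.5 peaks, 654 were kept (77.7%, 74.7 to 80.4). In the narrowest width class of E12.5 peaks, 1.28% of kept (0.872 to 1.81) and 0.195% of new peaks (0.0532 to 0.499) met Hoxa11, and in the widest 18.4% (17.2 to 19.6) and 11.6% (8.67 to 14.99). Both the E11.5 Hoxa13 library and Hoxa11 replicate 1 had the same input library by its title. The difference between kept and new E12.5 peaks was 3.71 percentage points with replicate 1 alone and 1.59 points with replicate 2 alone. The replicate 1 list held 2953 peaks and the replicate 2 list 1647, so these differences depend on list length. Whether the shared input bears on them was not tested.

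The Hoxa11 replicates differed in where they met new E12.5 peaks. Replicate 1 was met by 0.780% of new peaks and replicate 2 by 1.18% (154 peaks), while among kept peaks the order was the other way, 1419 (4.49%) and 875 (2.77%). Of the 114 new peaks that met replicate 2 only, 72 lay in 15 windows of 1 Mb that are dense in E12.5 peaks. Windows were called dense when they held more than 65 E12.5 or 190 E11.5 peaks, the third quartile plus 3 interquartile ranges. All 15 were dense by the E12.5 list and none by the E11.5 list. Outside these windows and on the placed chromosomes, 83 new peaks met replicate 1 (0.706%) and 65 met replicate 2 (0.553%).

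By chromosome, the kept share at E12.5 was lower on the sex chromosomes than on any autosome. It lay between 63.9% (chromosome 7) and 76.0% (chromosome 16) over the 19 autosomes, with a median of 73.1%. On chromosome X, 1113 of 2003 E12.5 peaks were kept (55.6%, 53.4 to 57.8), and on chromosome Y 19 of 46 (41.3%, 27.0 to 56.8). At E11.5 the autosomes ranged from 20.1% (chromosome 11) to 22.9% (chromosome 4), and chromosome X stood at 23.6% (22.4 to 24.9). The E11.5 list held 2.87 to 3.49 peaks for each E12.5 peak on the autosomes, but 2.26 on chromosome X and 0.870 on chromosome Y. Of the 15 dense windows, 7 were on chromosome X. Without them, 60.1% of its E12.5 peaks (57.4 to 62.8) and 19.1% of its E11.5 peaks (17.9 to 20.3) were kept.

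**Figure D3:**
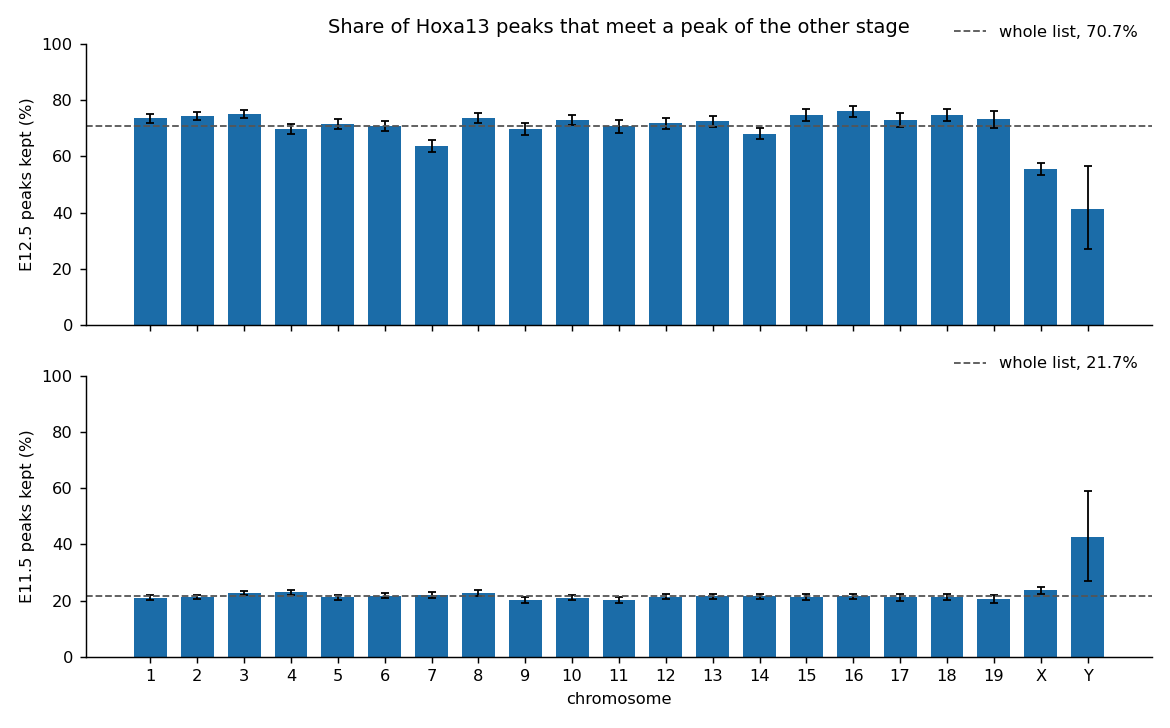
Share of Hoxa13 peaks kept on each placed chromosome at E12.5 (upper panel) and E11.5 (lower panel), with exact 95% intervals; dashed lines are the shares of the whole lists, 70.7% and 21.7%. At E12.5 the bars of chromosomes 7, X and Y stand below the others, at 63.9%, 55.6% and 41.3%.

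On 6 of the sequences, chromosome Y and unplaced ones, the E12.5 list was the longer. Y_random held 548 E12.5 and 329 E11.5 peaks, with 31.4% of E12.5 peaks kept (27.5 to 35.5) and 49.8% of E11.5 peaks (44.3 to 55.4). Un_random held 120 E12.5 and 88 E11.5 peaks, with 28.3% of E12.5 peaks kept (20.5 to 37.3). The exception in share was 4_random, where 30 of 35 E12.5 peaks were kept (85.7%, 69.7 to 95.2) and the median width was 310 bp at E12.5 and 567 bp at E11.5. Over all unplaced sequence and the mitochondrial genome, 34.0% of 830 E12.5 peaks (30.8 to 37.3) and 43.7% of 590 E11.5 peaks (39.7 to 47.8) were kept.

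New E12.5 peaks were unevenly spread over the genome. The 15 dense windows held 781 of them, 5.97% of all new peaks, beside 2.097% of all kept ones, and 13 of these windows had more E12.5 than E11.5 peaks. All 15 were chosen through their E12.5 count and none through their E11.5 count. An excess of E12.5 peaks, many new peaks and a low kept share there follow in part from that choice. In the dense windows 45.9% of E12.5 peaks were kept (43.3 to 48.5), against 72.3% (71.9 to 72.7) elsewhere on the placed chromosomes. In the first 1 Mb window with sequence on chromosomes 1 to 19 and X, which adjoins the centromere in the mouse, 242 of 580 E12.5 peaks were kept (41.7%, 37.7 to 45.9), against 71.9% (71.4 to 72.3) in the other windows. At E11.5 the same windows gave 24.0% (21.3 to 26.8) and 21.6% (21.3 to 21.8). These first windows were chosen after the counts had been seen. Those of chromosomes 9 and X are among the dense windows, with 78 of 90 and 55 of 97 E12.5 peaks new. Those of chromosomes 11 and 16, named again below, had 51 of 58 and 37 of 53 new. Only these 4 first windows held more E12.5 than E11.5 peaks. The low share of the first windows thus rests in part on them, and the share without them was not computed.

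The 5 windows with most new peaks outside the dense ones had low kept shares at E12.5, between 12.1% and 30.2%. Because they were picked for their new peaks, low kept shares and high E12.5 counts follow in part from the choice. Chromosome 11, 3000001 to 4000000, held 58 E12.5 peaks of which 51 were new, and 23 E11.5 peaks. Chromosome 14, 42000001 to 43000000, next to a dense window, held 64 with 49 new. Chromosome 16, 3000001 to 4000000, held 53 with 37 new, and the windows of chromosome 7 from 7000001 and from 10000001 held 50 each, with 36 and 35 new. In each of these 5 windows the E12.5 count exceeded the E11.5 count, which was the case in 17 of the 2568 windows that were not dense. Repeated sequence was not screened out and read mapping in these windows was not examined.

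The windows richest in kept and in lost peaks overlapped. The most kept E12.5 peaks, 48 of 62, lay on chromosome 16, 63000001 to 64000000. Next came chromosome 10 from 103000001 with 43 of 59, chromosome 5 from 12000001 with 43 of 52, and chromosome 16 from 72000001 and chromosome 3 from 6000001 with 41 of 46 each. The most lost E11.5 peaks lay on chromosome 16 from 74000001, with 130 of 164, and from 77000001, with 129 lost. The other windows of this kind were all on chromosome 5, starting at 82000001 (126 of 164), 80000001 (119 of 141) and 12000001 (116 of 159). The last is among the richest in kept sites too. Across the 2568 windows the numbers of E12.5 and E11.5 peaks had a Spearman correlation of 0.853, a description over windows of the same 2 libraries. In the 1880 of them with at least 10 E12.5 peaks, the kept share of E12.5 peaks had a median of 73.7% (10th and 90th percentiles 54.5% and 87.5%). In 12 windows every E12.5 peak was kept, and in 86 most were new.

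Individual sites of each class were named by width, outside dense windows on the placed chromosomes. The widest kept E12.5 peaks were a neighbouring pair on chromosome 12, 8638071 to 8640059 and 8640456 to 8642398, which lay on E11.5 peaks of 3067 and 2163 bp and met Hoxa11 in both replicates. They were followed by chromosome 15, 58741224 to 58742918, which met the E11.0 list but not Hoxa11. Chromosome 14, 52116524 to 52118063, spanned 2 E11.5 peaks and met both Hoxa11 replicates. Chromosome 1, 7380555 to 7382090, is 1 of the 4 E12.5 peaks within the widest E11.5 interval.

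The widest new E12.5 peaks were a pair on chromosome 17, 39979964 to 39984292 (4329 bp) and 39984429 to 39985758 (1330 bp), 26109 and 30574 bp from the nearest E11.5 peak. Both met Hoxa11 replicate 2 and not replicate 1. The next were much narrower, 711 bp on chromosome 19 (14361595 to 14362305), 655 bp on chromosome 2 (181652139 to 181652793) and 652 bp on chromosome 11 (3089289 to 3089940). The last lies in the first window of chromosome 11, where 51 of 58 E12.5 peaks were new. Repeated sequence was not screened out and read mapping was not examined at any of these new peaks, so they may not be sites of Hoxa13. The widest lost E11.5 peak, chromosome 11 from 106909750 to 106912500 (2751 bp), was 154540 bp from any E12.5 peak and met the E11.0 list. The others were chromosome 7, 95416119 to 95417967, chromosome 13, 65647707 to 65649419, chromosome X, 151189141 to 151190751, and chromosome 9, 114086846 to 114088454. They lay 781 to 4473 bp from an E12.5 peak, and all of them except that on chromosome X met E11.0.

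Windows of 1 Mb around 32 limb loci were then examined. Their names come from general knowledge of where these genes lie in mm9, to the nearest 1 Mb. All 38 genes that name them are on the same chromosome in the RefSeq table of the later build GRCm38, from which no position was taken. A peak in such a window was not assigned to the gene, and windows also hold other genes. The 34 windows held 697 E12.5 peaks, with a median over loci of 19 per Mb against a median of 15 over all windows, and 2376 E11.5 peaks, with a median of 68 per Mb against 52. Of the E12.5 peaks, 549 were kept (78.8%, 75.5 to 81.7; whole list 70.7%), and of the E11.5 peaks 537 (22.6%, 20.9 to 24.3; whole list 21.7%). None of these windows was dense, and on placed chromosomes outside dense windows 72.3% of E12.5 peaks were kept. The median share over the 1880 such windows with at least 10 E12.5 peaks was 73.7%, itself above the whole list. At E12.5, the kept share exceeded that of the whole list in 24 of the 32 loci. The interval lay wholly above it in 4 (HoxD cluster, Hand2, Meis2 and Epha7) and wholly below it in none. Only for Epha7, with a lower limit of 76.9%, did the interval also lie wholly above the window median of 73.7%. At E11.5, 15 loci were above and 17 below, with an interval above in 2 (Epha3 and Epha7) and below in 1 (Sall1).

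The peaks of these windows were also set against the other lists. Of the kept E12.5 peaks, 40.3% met E11.0 (36.1 to 44.5; 43.5% of all kept peaks), and of the 148 new ones 8 did (5.41%, 2.36 to 10.4; 16.4% of all new peaks). A Hoxa11 peak of either replicate was met by 12.4% of the kept peaks (9.75 to 15.4; 5.10% of all kept peaks) and by 3 of the new ones (2.03%, 0.420 to 5.81; 1.65% of all new peaks). At E11.5, 41.3% of kept (37.1 to 45.6) and 12.3% of lost peaks (10.8 to 13.9) met E11.0. Over the whole E11.5 list these shares were 44.3% and 13.98%. Hoxa11 of either replicate was met by 13.0% of kept (10.3 to 16.2) and 2.39% of lost peaks (1.74 to 3.20). Over the whole list the Hoxa11 shares were 5.05% and 0.739%, so at E11.5 both classes met Hoxa11 more often in these windows.

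**Figure D4:**
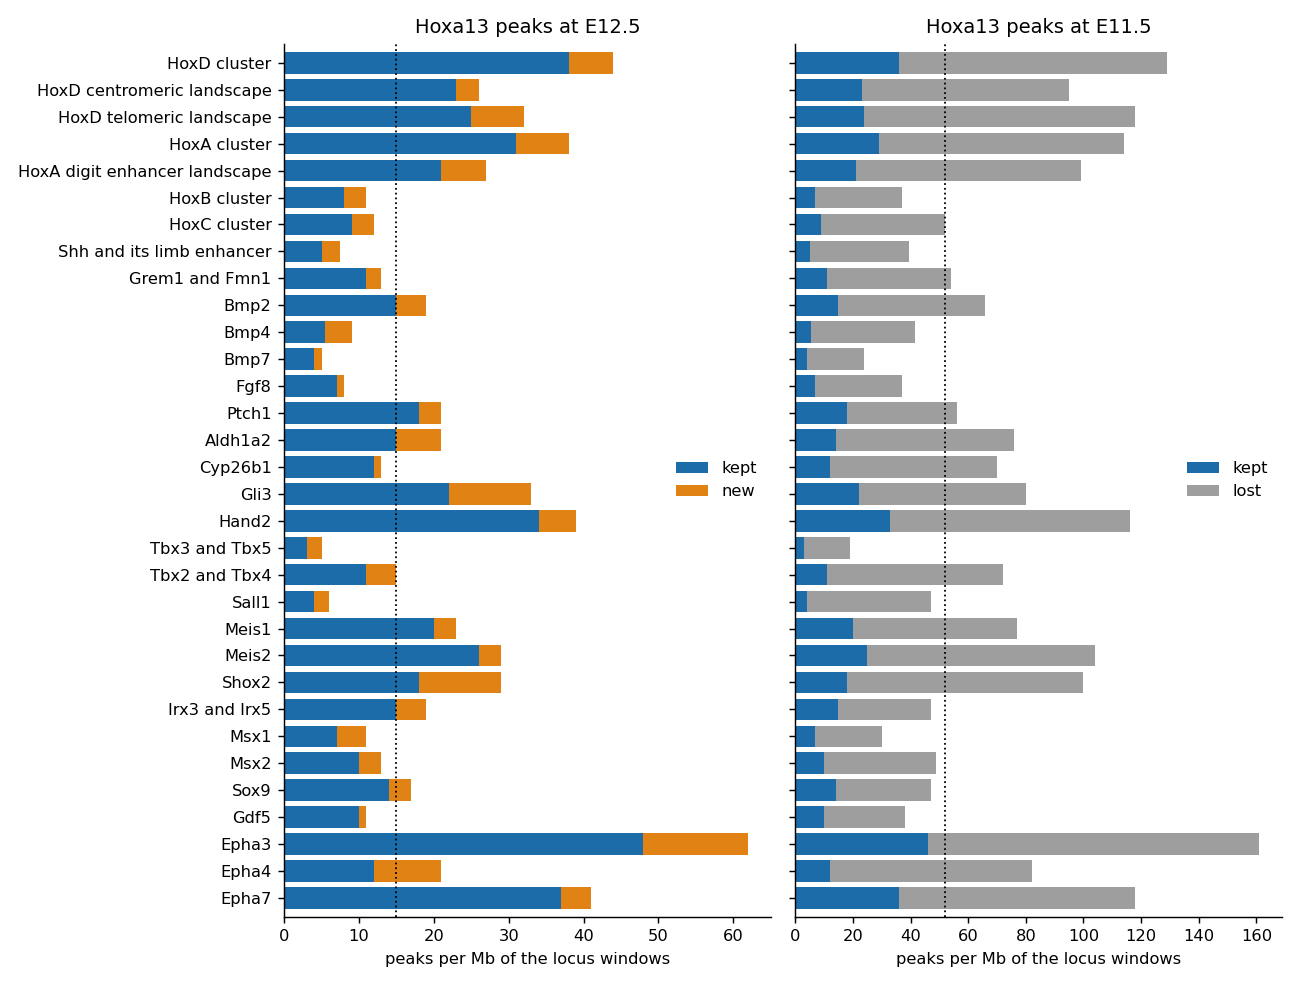
Hoxa13 peaks per Mb in the 1 Mb windows named for limb loci, split into kept and new at E12.5 (left) and kept and lost at E11.5 (right); dotted lines mark the median over all windows, 15 and 52. The HoxD and HoxA, Hand2, Epha3 and Epha7 windows were the richest at E12.5, with 38 to 62 peaks per Mb.

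The windows of the HoxD and HoxA clusters, and the adjoining windows examined here, were rich in sites at both stages. The window of the HoxD cluster held 44 E12.5 peaks, of which 38 were kept (86.4%, 72.6 to 94.8), and 129 E11.5 peaks, of which 36 were kept (27.9%, 20.4 to 36.5). Its count exceeded that of 98.1% of windows at E12.5 and 99.0% at E11.5. The adjoining window on its centromeric side, the side known for digit enhancers, held 26 E12.5 peaks with 23 kept (88.5%, 69.8 to 97.6). It held 95 E11.5 peaks with 23 kept. The adjoining window on the telomeric side, the side known for forearm enhancers, held 32 E12.5 peaks with 25 kept (78.1%, 60.0 to 90.7). It held 118 E11.5 peaks with 24 kept. The intervals of both sides overlap widely. The window of the HoxA cluster held 38 E12.5 peaks with 31 kept (81.6%, 65.7 to 92.3) and 114 E11.5 peaks with 29 kept (25.4%, 17.7 to 34.4). That of its digit enhancers held 27 with 21 kept and 99 with 21 kept. The HoxB and HoxC windows, clusters with little part in digit formation, held 11 and 12 E12.5 peaks, below the median window, with 8 and 9 kept.

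In the HoxD window the kept E12.5 peaks were up to 895 bp wide and the new ones 111 to 189 bp. The widest kept peak lay on chromosome 2, 74457384 to 74458278, on an E11.5 peak from 74457385 to 74458160, and met the E11.0 list. It is the only E12.5 peak of this window that is wider than its partner, at 895 against 776 bp. The next in width were 74110521 to 74110963 (443 bp), 74218946 to 74219381 (436 bp), 74976291 to 74976711 (421 bp) and 74969700 to 74970030 (331 bp). Peaks 74218946 to 74219381, 74976291 to 74976711 and 74535305 to 74535509 met Hoxa11 in both replicates. The new peaks were 74214789 to 74214925, 74231427 to 74231615, 74455825 to 74455945, 74541425 to 74541535, 74654385 to 74654510 and 74951194 to 74951323. None of these 6 met an E11.0 or a Hoxa11 peak, and they lay 62 to 11848 bp from the nearest E11.5 peak. The E11.5 peaks included a lost site of 1357 bp at 74393743 to 74395099, which met E11.0 and lay 6239 bp from the nearest E12.5 peak; it was chosen after its width was seen.

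In the HoxA window the widest kept E12.5 peak was on chromosome 6, 52176208 to 52176835 (628 bp). It lay on an E11.5 peak of 802 bp and met E11.0 and both Hoxa11 replicates, as did 52151018 to 52151290, 52166701 to 52166901 and 52551639 to 52551829. The E11.5 peaks of 1397 bp (52551370 to 52552766) and 1298 bp (52924473 to 52925770) each held 2 E12.5 peaks. The new peaks were 52058748 to 52058859, 52181529 to 52181735, 52487163 to 52487273, 52506192 to 52506360, 52734368 to 52734512, 52795981 to 52796090 and 52802845 to 52802984. All 7 new peaks were 110 to 207 bp wide and met neither E11.0 nor Hoxa11.

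**Figure D5:**
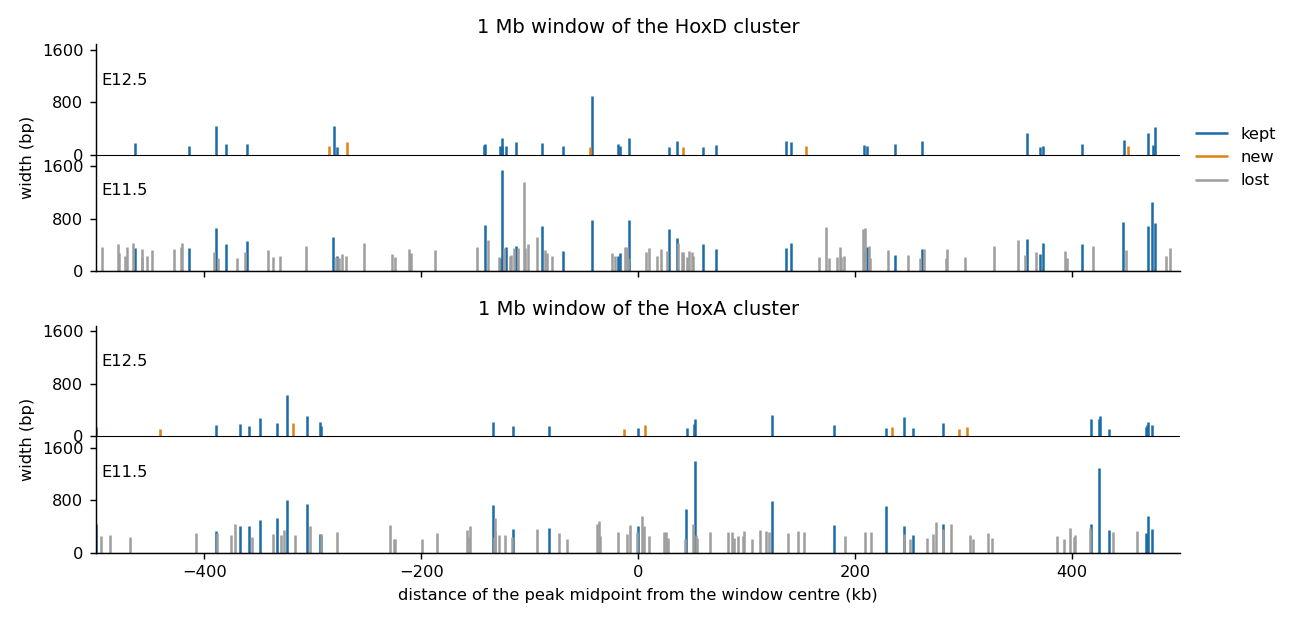
Hoxa13 peaks in the 1 Mb windows of the HoxD (upper) and HoxA (lower) clusters, by distance of the midpoint from the window's centre in kb; line height is peak width in bp, with E12.5 above E11.5. Most E12.5 peaks stand over a kept E11.5 peak, 38 of 44 in the HoxD and 31 of 38 in the HoxA window, while most E11.5 peaks are lost.

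Among loci of secreted signals and their enzymes, E12.5 peaks were fewer. Shh, the signal of the posterior margin, with its limb enhancer in the adjoining window, had 15 E12.5 peaks over 2 Mb with 10 kept, and 79 E11.5 peaks with 10 kept (12.7%, 6.24 to 22.0). Grem1, a BMP antagonist, with Fmn1 had 13 with 11 kept, and 54 with 11 kept at E11.5. Of the BMP ligands, Bmp2 had 19 with 15 kept, Bmp4 18 over 2 Mb with 11 kept, and Bmp7 5 with 4 kept. Ptch1, the receptor of Shh, had 21 with 18 kept, and its E11.5 share of 32.1% (18 of 56, 20.3 to 45.96) was the highest of the 32 loci. Fgf8, a signal of the apical ridge, had 8 with 7 kept. Aldh1a2, which makes retinoic acid, had 21 with 15 kept, and Cyp26b1, which degrades it, 13 with 12 kept.

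Among loci of transcription factors, Hand2, a regulator of posterior identity, had 39 E12.5 peaks with 34 kept (87.2%, 72.6 to 95.7) and 116 E11.5 peaks with 33 kept. Gli3, which acts in the anterior limb bud, had 33 with 22 kept (66.7%, 48.2 to 82.0) and 80 with 22 kept. Of the proximal limb genes, Meis2 had 29 with 26 kept (89.7%, 72.6 to 97.8), Meis1 23 with 20 kept and Shox2 29 with 18 kept (62.1%, 42.3 to 79.3). Sall1, a distal limb gene, had 6 with 4 kept, and 47 E11.5 peaks with 4 kept (8.51%, 2.37 to 20.4). The window of Tbx3 and Tbx5 had the fewest E11.5 peaks per Mb of the 32 loci, 19 with 3 kept, and with Bmp7 the fewest at E12.5, 5 with 3 kept. Tbx2 and Tbx4 had 15 with 11 kept, Irx3 and Irx5 19 with 15 kept, Msx1 11 with 7 kept and Msx2 13 with 10 kept. Of the cartilage and joint genes, Sox9 had 17 with 14 kept and Gdf5 11 with 10 kept.

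The Eph receptors, which act in cell sorting and contact guidance, included the richest locus window of all. Epha3 had 62 E12.5 peaks with 48 kept (77.4%, 65.0 to 87.1) and 161 E11.5 peaks with 46 kept (28.6%, 21.7 to 36.2). Its window is the one that held the most kept peaks outside the dense windows. Epha7 had 41 with 37 kept (90.2%, 76.9 to 97.3) and 118 with 36 kept (30.5%, 22.4 to 39.7). Epha4 had 21 with 12 kept (57.1%, 34.0 to 78.2), the lowest share of the 32 loci at E12.5, and 82 with 12 kept (14.6%, 7.80 to 24.2).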

How the data were processed

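Peak positions were used as the authors deposited them, 1 list per library, with chromosome, start and end of each peak and no score in either Hoxa13 list. The build is mm9, and the tools named are MACS2 2.1.0, Bowtie2 2.2.2 and CASAVA 1.4, all per the submitters' processing notes; thresholds, duplicate handling and use of the input are not given in the sources used here. Read depth was unknown. Overlaps were computed with Python 3.11.15, numpy 2.4.6 and pandas 2.3.3, and the interval functions were tested on simulated lists with known overlaps. Positions are printed 1-based. Intervals are exact Clopper-Pearson intervals at 95% (scipy 1.17.1). They cover counting error over peaks, which are not replicates, so no p-value is given. A peak belongs to the 1 Mb window of its midpoint. The kept, lost and new classes and the locus list were chosen with earlier results of these data known. The rule for named items takes the locus windows, the 5 widest peaks of each class and the 5 richest windows outside dense windows, and the E12.5 peaks of the HoxD and HoxA windows, of which only some are printed. No genome of mm9 was in hand, so no sequence or motif is shown. Alternatives changed the overlap rule, list length, widths, chromosomes and windows.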

Additional observations from a re-analysis of the deposited data

How the results depend on the processing

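Of 56 alternative values, 39 moved and 17 did not, judged by the main value's interval or, for the share of bases, which has none, by its printed value. No difference changed sign. Values follow as share of E12.5 kept, share of E11.5 kept, share of E12.5 bases in E11.5 peaks, and the kept minus new difference at E12.5 in meeting E11.0 and in meeting Hoxa11 (points), against 70.7%, 21.7%, 72.4%, 27.1 and 3.45. An overlap of 50% of both peaks gave 29.6%, 9.23%, 37.6%, 15.5 and 1.72. The widest 44699 peaks of each list gave 43.2%, 42.0%, 49.5%, 32.0 and 6.02. The narrower 50% of a list gave 61.7%, 9.64%, 61.0%, 18.1 and 1.24. Intervals of 200 bp gave 68.2%, 21.2%, 53.9%, 26.0 and 2.45. The midpoint rule gave 69.9%, 18.4% and 72.1%. A gap of up to 200 bp gave 71.7% and 22.1%. Placed chromosomes alone gave 71.4% of E12.5 peaks and 73.1% of bases. Leaving out dense windows gave 71.6%, 21.4%, 73.4% and 28.1 points. The median width of kept peaks exceeded that of new peaks by 27 bp at E12.5 and of lost peaks by 82 bp at E11.5. The excess was 70 and 42 bp under 50% overlap, 38 and 33 bp with the widest peaks, 5 and 11 bp in the narrower 50%, and 72 bp at E11.5 by midpoints. With intervals of 200 bp all widths are equal, so it has no value. The fall in kept E12.5 peaks with the widest peaks follows from fewer E11.5 peaks; the causes of the other moves were not tested. Without a Hoxa11 replicate, the Hoxa11 difference ranged from 1.59 to 3.71 points. No paired analysis was possible because each stage had 1 library. Depth was unknown, so a site missing from a list cannot be told apart from a site below the threshold, and stage cannot be told apart from library protocol.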
